A study of Mus musculus with 6 samples.

Results

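The genes described here are 10 enzymes that stand below receptors coupled to the G protein Gq and below the B cell receptor. Phospholipase C genes are 4 of them (Plcg1, Plcg2, Plcb2 and Plcb3) and protein kinase C genes are 6 (Prkca, Prkcb, Prkcd, Prkce, Prkch and Prkcq). They were picked by gene symbol, and all 10 were found among the 16511 genes of the deposited table and passed the filter on low counts. RNA was sequenced from B lymphocytes enriched from mouse spleen by magnetic negative selection, in 3 libraries labelled GPR40-KO and 3 labelled GPR40-WT. The series' design text calls the knockout mice GPR40-BKO. The sources used here give neither the construction of the allele, nor the cells that lost GPR40, nor the strain and age of the mice, and they name no treatment. GPR40, encoded by Ffar1, is a receptor for long-chain fatty acids that couples to Gq.

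The label and the targeted gene went opposite ways. Ffar1 had 273, 392 and 304 counts in the libraries labelled KO and 0 counts in each library labelled WT, where the floor of 3 counts is about 0.20 CPM (counts scaled to library size). Every direction below is therefore that of the label, not of a checked genotype. Library totals lay between 14907080 and 15461425 estimated counts. Defining B cell markers were abundant in all 6 libraries, with Cd79a between 1595 and 2699 CPM. Summed over 7 such markers, the level was 7722 to 8248 CPM in the KO-labelled libraries and 4630 to 6914 CPM in the WT-labelled ones. Neutrophil markers summed to 95.9 to 210 CPM in the KO-labelled libraries and 618 to 6032 CPM in the WT-labelled ones, and macrophage and monocyte markers to 963 to 1766 CPM in the KO-labelled and 2140 to 5666 CPM in the WT-labelled libraries. The library labelled WT replicate 1 stood apart by its T cell and neutrophil markers, and WT replicate 3 by erythroid markers at 7106 CPM, against 288 to 1340 CPM in the other 5 libraries.

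Phospholipase C cuts the membrane lipid PIP2 into IP3, which opens calcium channels of the endoplasmic reticulum, and diacylglycerol, which stays in the membrane and recruits protein kinase C. In B cells the gamma enzymes are switched on by tyrosine kinases of the B cell receptor, and the beta enzymes by Gq and by G protein beta-gamma subunits. Conventional protein kinases C (alpha and beta here) need calcium and diacylglycerol, while the calcium-independent ones (delta, epsilon, eta and theta) need diacylglycerol alone. PKC beta links B cell receptor engagement to NF-kB activation.

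In the KO-labelled libraries, 4 of the 10 genes were higher (Plcg2, Plcb2, Prkca and Prkcb), 2 were lower (Plcg1 and Prkch) and 4 did not pass (Plcb3, Prkcd, Prkce and Prkcq), by edgeR's quasi-likelihood test with Benjamini-Hochberg adjustment over 12234 genes at a threshold of 0.05. Across all tested genes 9.37% were called, 4.55% as higher and 4.81% as lower in the libraries labelled KO. The groups did not overlap for 8 of the 10 genes, 5 of them higher and 3 lower in the libraries labelled KO, against 33.4% of all tested genes, with 17.5% higher and 15.9% lower. The median log2 fold change was 0.23 for the 10 genes and 0.01 for all tested genes. With the replicate number of the labels as a block, 2535 genes were called in place of 1146, and Prkce joined the higher members. Without the libraries labelled WT replicate 1 and KO replicate 3 together, 4 members passed, with Plcg2, Plcb2 and Prkca higher and Plcg1 lower. The libraries are bulk samples, in which fewer cells of a type and less RNA per cell cannot be told apart.

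**Figure D1:**
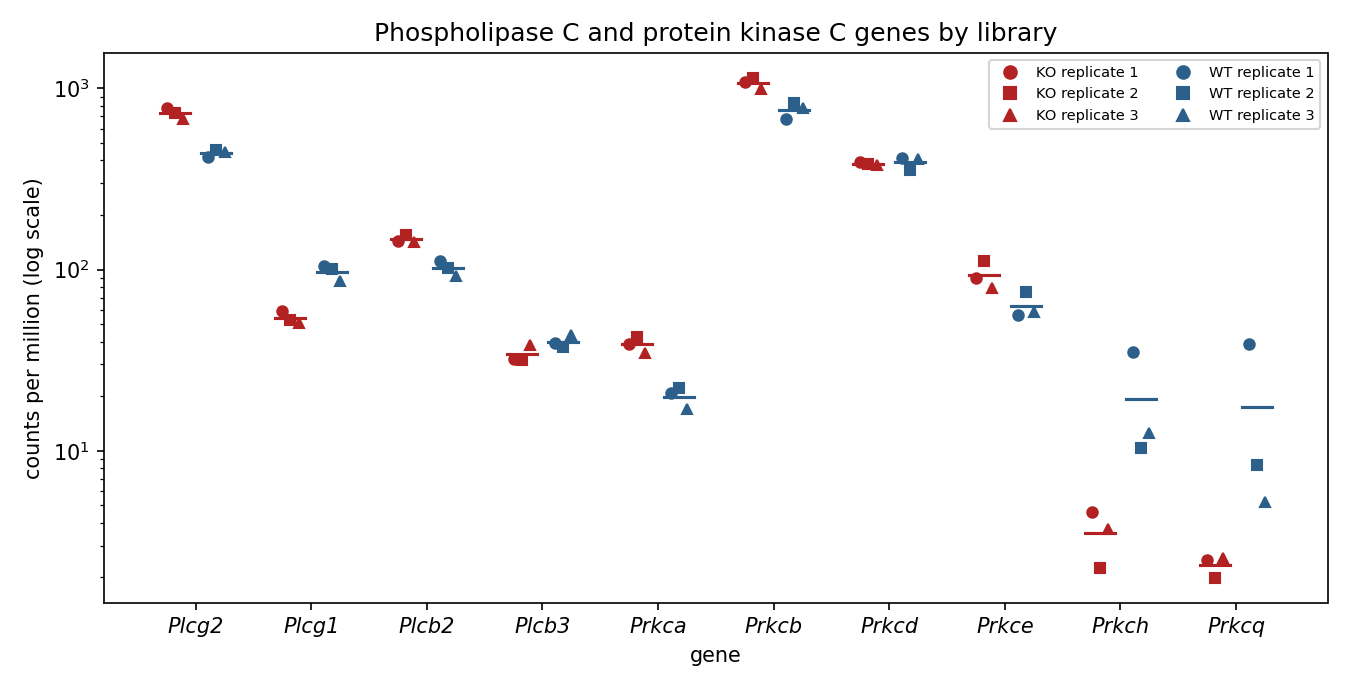
Level of each gene in every library, in CPM on a log axis, with the libraries labelled KO (red) left of those labelled WT (blue) and a bar at each group mean. Plcg2, Plcb2, Prkca, Prkcb and Prkce are higher in all 3 libraries labelled KO, Plcg1, Prkch and Prkcq are lower in all 3, and Plcb3 and Prkcd overlap.

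The gamma phospholipases moved in opposite directions. Plcg2, the isoform that the B cell receptor uses through Btk and Blnk, had 775, 730 and 675 CPM in the libraries labelled KO replicates 1, 2 and 3, against 416, 455 and 446 CPM in those labelled WT. The lowest library labelled KO lay well above the highest labelled WT. This was a 1.65-fold higher level (log2 fold change 0.73 ± 0.09, SE, n = 3 libraries per group, edgeR adjusted p = 0.00270). Plcg1, the isoform best known from T cell receptor and growth factor signalling, had 58.9, 52.5 and 51.0 CPM in the libraries labelled KO, against 104, 101 and 86.8 CPM in those labelled WT. Again the groups did not overlap, here with the libraries labelled KO low, and the log2 fold change was -0.84 ± 0.10 (edgeR adjusted p = 0.00299). Both calls held in each of the 6 fits that left out 1 library, with log2 fold changes of 0.68 to 0.78 for Plcg2 and -0.91 to -0.79 for Plcg1.

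Per unit length, Plcg2 made up 93.1%, 93.5% and 93.2% of the summed gamma phospholipase TPM (level scaled to length and depth) in the libraries labelled KO, against 80.5%, 82.4% and 84.1% in those labelled WT. The ratio of Plcg2 to Plcg1 TPM was 13.5, 14.3 and 13.6 in the libraries labelled KO, against 4.12, 4.67 and 5.30 in those labelled WT. The ratio varied little within each group and was free of any scaling between libraries. The sum of both genes was 319 ± 31.3 TPM in the KO-labelled libraries and 221 ± 10.5 TPM in the WT-labelled ones (SD, n = 3 each), without overlap.

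Plcg2 lies on chromosome 8 at 117498291 to 117635142 (GRCm38, plus strand) and Plcg1 on chromosome 2 at 160731300 to 160775760 (plus strand). Of the 7857 exonic bases of Plcg1, 379 overlap exons of Zhx3 on the opposite strand, and no step that keeps the strand is stated for these libraries. Zhx3 had 123, 104 and 135 counts in the libraries labelled KO, against 107, 93 and 109 in those labelled WT, and did not pass (edgeR adjusted p = 0.480). Plcg1 had 761 to 875 counts in the KO-labelled libraries and 1314 to 1608 in the WT-labelled ones.

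The promoters of this pair are shown because the genes moved in opposite directions while their start regions hold the same motifs of those searched. Each runs from 250 bases before to 50 bases after the RefSeq start (GRCm38.p6), 5′ to 3′ on the gene's strand. Capitals mark matches on either strand to the GC box GGGCGG bound by Sp1-type factors, the octamer ATGCAAAT bound by Oct factors, the ETS site CCGGAAG, the PU.1-type ETS site GAGGAAG and the E box CAGGTG. The ETS sites share the letters GGAAG.
Plcg2, chr8:117498025-117498324, plus strand: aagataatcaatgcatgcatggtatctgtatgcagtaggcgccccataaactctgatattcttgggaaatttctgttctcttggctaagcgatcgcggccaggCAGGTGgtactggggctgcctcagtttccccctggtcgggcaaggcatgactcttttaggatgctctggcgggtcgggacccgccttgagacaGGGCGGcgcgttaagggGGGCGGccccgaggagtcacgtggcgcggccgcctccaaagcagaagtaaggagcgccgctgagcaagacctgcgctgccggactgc
Plcg1, chr2:160731060-160731359, plus strand: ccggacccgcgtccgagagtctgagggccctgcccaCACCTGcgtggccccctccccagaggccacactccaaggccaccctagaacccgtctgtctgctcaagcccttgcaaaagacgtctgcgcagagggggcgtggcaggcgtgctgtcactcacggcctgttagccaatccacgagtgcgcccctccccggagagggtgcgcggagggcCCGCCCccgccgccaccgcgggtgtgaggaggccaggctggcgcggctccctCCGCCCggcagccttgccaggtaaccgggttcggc
Each of these promoters holds 2 GC boxes and 1 E box and no match to the other motifs. A GC box occurs in 35.7% and this E box in 20.2% of 32851 RefSeq promoters of the same length. The Plcg1 promoter had a GC content of 72% and the Plcg2 promoter one of 60%.

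Among the beta phospholipases, Plcb2, an isoform of blood cells that responds to Gq and to beta-gamma subunits, rose in the libraries labelled KO. It had 144, 155 and 143 CPM there, against 111, 102 and 92.7 CPM in the libraries labelled WT, with no overlap. The log2 fold change was 0.53 ± 0.09 (edgeR adjusted p = 0.0119). Leaving out KO replicate 2 ended this call (adjusted p = 0.0656), and it held in the other 5 fits that left out 1 library. Plcb3, a widely expressed isoform activated in the same ways, had 32.2, 31.7 and 38.1 CPM in the libraries labelled KO, against 39.3, 37.3 and 43.3 CPM in those labelled WT. The groups overlapped through the library labelled KO replicate 3, and the difference did not pass (log2 fold change -0.23 ± 0.12, edgeR adjusted p = 0.241). Plcb2 held 77.5% ± 3.44 of the summed beta TPM in the KO-labelled libraries and 66.7% ± 4.20 in the WT-labelled ones (SD, n = 3 each), without overlap. Plcb2 lies on chromosome 2 at 118707517 to 118728438 and Plcb3 on chromosome 19 at 6952325 to 6976470 (GRCm38, both minus strand).

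Both conventional protein kinase C genes rose in the libraries labelled KO. Prkcb encodes PKC beta, the isoform required for B cell receptor signalling to NF-kB in mice. It had 1084, 1140 and 993 CPM in the libraries labelled KO, against 674, 828 and 783 CPM in those labelled WT. No library labelled WT reached the lowest labelled KO, and the log2 fold change was 0.49 ± 0.10 (edgeR adjusted p = 0.0260). This call was lost without any 1 of the libraries labelled KO replicate 1 or 2 or labelled WT replicate 1 or 3 (adjusted p = 0.0685 to 0.141), while the log2 fold change stayed between 0.41 and 0.57. Prkca, encoding the widely expressed PKC alpha, had 38.7, 42.5 and 34.7 CPM in the libraries labelled KO, against 20.7, 22.1 and 16.9 CPM in those labelled WT. It differed by 1.94-fold (log2 fold change 0.96 ± 0.14, edgeR adjusted p = 0.00733) and passed in all 6 fits that left out 1 library (adjusted p up to 0.0443).

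Prkcb lies on chromosome 7 at 122288751 to 122634402 (plus strand), 91.4 Mb from Ffar1, and Prkca on chromosome 11 at 107933387 to 108343928 (minus strand). Their promoters are shown, with capitals as above, because both genes rose and Prkcb is the one of 8 members with a promoter in the table that holds the octamer.
Prkcb, chr7:122288875-122289174, plus strand: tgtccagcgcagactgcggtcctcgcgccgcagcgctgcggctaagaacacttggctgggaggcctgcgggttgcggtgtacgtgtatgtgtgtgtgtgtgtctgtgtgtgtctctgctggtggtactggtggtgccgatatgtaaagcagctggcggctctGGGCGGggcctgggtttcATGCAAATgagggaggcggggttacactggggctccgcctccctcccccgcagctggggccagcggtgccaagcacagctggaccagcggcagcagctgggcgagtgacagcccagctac
Prkca, chr11:108343839-108344138, minus strand: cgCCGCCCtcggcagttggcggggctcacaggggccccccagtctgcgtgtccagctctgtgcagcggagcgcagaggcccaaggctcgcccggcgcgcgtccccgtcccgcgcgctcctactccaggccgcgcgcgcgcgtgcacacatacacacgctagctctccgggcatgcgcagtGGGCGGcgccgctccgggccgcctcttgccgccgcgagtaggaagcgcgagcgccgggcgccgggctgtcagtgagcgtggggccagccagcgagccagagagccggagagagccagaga
The octamer of Prkcb begins at position -70 and its GC box at position -88, counted from the start site. An octamer of these letters occurs in 1.74% of the 32851 promoters. Prkca holds 2 GC boxes and no other motif of those searched. A match of letters is a description of the sequence and shows no binding.

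Among the calcium-independent members, neither Prkcd nor Prkce passed. Prkcd encodes PKC delta, which restrains B cell expansion and is needed for B cell tolerance in mice. It had 394, 382 and 376 CPM in the libraries labelled KO, against 415, 353 and 408 CPM in those labelled WT. The groups overlapped and the estimate was close to 0 (log2 fold change -0.03 ± 0.09, edgeR adjusted p = 0.858), with its sign changing under upper-quartile scaling and without the library labelled WT replicate 1 or 3. Prkce, encoding PKC epsilon, had 89.6, 112 and 78.9 CPM in the libraries labelled KO, against 56.0, 75.6 and 58.1 CPM in those labelled WT. All 3 libraries labelled KO were above those labelled WT, and replicate 2 was the highest of its group in both. The difference did not pass (log2 fold change 0.56 ± 0.16, edgeR adjusted p = 0.0694) but did with the replicate block (blocked adjusted p = 0.00214). Prkcd lies on chromosome 14 at 30595354 to 30626210 (minus strand) and Prkce on chromosome 17 at 86167785 to 86657919 (plus strand).

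The other calcium-independent members, Prkch and Prkcq, were scarce in the libraries labelled KO, and lower in each of these than in any labelled WT. Prkch encodes PKC eta, and had 4.58, 2.26 and 3.68 CPM in the libraries labelled KO, against 35.2, 10.4 and 12.5 CPM in those labelled WT. The library labelled WT replicate 1 was the highest by far, and the groups did not overlap. The log2 fold change was -2.46 ± 0.56 (edgeR adjusted p = 0.0469), and -1.70 ± 0.34 without that library (adjusted p = 0.0248). Leaving out any 1 KO-labelled library, or WT replicate 3, ended the call of Prkch (adjusted p = 0.0708 to 0.169). Prkcq encodes PKC theta, the isoform of the T cell synapse, and had 2.49, 2.00 and 2.55 CPM in the libraries labelled KO, against 38.9, 8.35 and 5.22 CPM in those labelled WT. Here too the library labelled WT replicate 1 stood far above the rest. The log2 fold change of -2.89 ± 0.85 did not pass (edgeR adjusted p = 0.0947) and was -1.53 ± 0.38 without that library (adjusted p = 0.0562). Prkch lies on chromosome 12 at 73584796 to 73778185 and Prkcq on chromosome 2 at 11172108 to 11301222 (both plus strand).

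Levels of T cell markers are given beside these genes. Summed over 12 T cell markers, the level was 114, 90.5 and 67.2 CPM in the libraries labelled KO, against 481, 113 and 71.7 CPM in those labelled WT, with overlap. Lck made up most of the sum in the libraries labelled KO, with 82.3, 57.0 and 48.6 CPM there, against 95.0, 33.1 and 15.5 CPM in those labelled WT. Without Lck, a choice made after its values were seen, the other 11 markers summed to 31.5, 33.5 and 18.6 CPM in the libraries labelled KO, against 386, 80.4 and 56.1 CPM in those labelled WT. Of the 12 markers, edgeR called 1 as lower in the libraries labelled KO (Cd8b1) and 11 did not pass, while 8 had an unadjusted p below 0.05 and DESeq2 called 8 as lower. Of all 12234 tested genes, 3458 had an unadjusted p below 0.05 in edgeR, and DESeq2 called 1391 as lower. None of the T cell markers was at 0 throughout a group. Per 100 CPM of all 12 markers, Prkcq had 2.19, 2.21 and 3.79 CPM in the libraries labelled KO, against 8.08, 7.36 and 7.28 CPM in those labelled WT. Prkch had 4.02, 2.50 and 5.48 CPM on this measure in the libraries labelled KO, against 7.31, 9.15 and 17.4 CPM in those labelled WT. Both genes were lower in the KO-labelled libraries without overlap, whereas Plcg1 overlapped, at 51.8 to 75.9 CPM in the KO-labelled and 21.6 to 121 CPM in the WT-labelled libraries. All 3 readings turned when Lck was left out. Per 100 CPM of the 11 markers, Prkcq had 7.91, 5.96 and 13.7 CPM in the libraries labelled KO, against 10.1, 10.4 and 9.29 CPM in those labelled WT, so that the groups overlapped. Prkch had 14.5, 6.76 and 19.9 CPM per 100 CPM of these markers in the libraries labelled KO, against 9.11, 12.9 and 22.2 CPM in those labelled WT, also with overlap. Plcg1 had 187, 157 and 275 CPM per 100 CPM of them in the libraries labelled KO, against 26.9, 125 and 155 CPM in those labelled WT, without overlap and with the KO-labelled libraries higher.

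**Figure D2:**
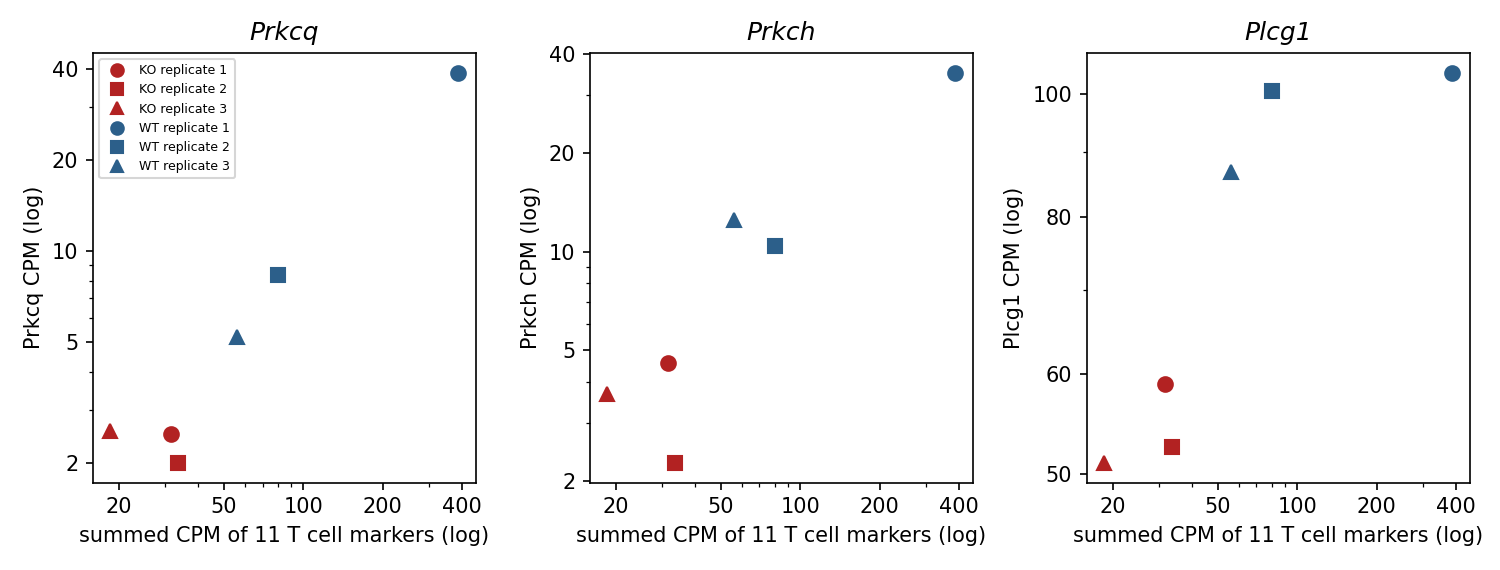
Level of Prkcq, Prkch and Plcg1 against the summed level of 11 T cell markers in each library, in CPM on log axes, with the libraries labelled KO in red and those labelled WT in blue. The library labelled WT replicate 1 has the highest marker sum (386 CPM) and the highest Prkcq (38.9 CPM) and Prkch (35.2 CPM), while its Plcg1 (104 CPM) is close to that of replicate 2 (101 CPM).

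Some B cell markers also differed between the labels. Of the 7 markers, Ms4a1, Blk and Cd37 rose in the KO-labelled libraries and 4 did not pass (Cd79a, Cd79b, Pax5 and Ebf1), though Cd79a passed under the replicate block (adjusted p = 0.0358). Of 7 marginal zone B cell markers, Cr2 at 1.55 ± 0.13 and Dtx1 at 1.72 ± 0.10 (log2 fold change) were higher, Asb2 at -1.08 ± 0.19 was lower and 4 did not pass. Of 6 transitional B cell markers, 4 were lower (Cd93, Rag1, Rag2 and Sox4, from -2.37 to -0.71), with sums of 693 to 813 CPM in the KO-labelled and 914 to 1407 CPM in the WT-labelled libraries. Of 7 tested dendritic cell markers, Flt3 and Itgax were lower and 5 did not pass. All 8 listed dendritic cell markers summed to 40.5 to 64.3 CPM in the KO-labelled and 99.4 to 145 CPM in the WT-labelled libraries. The part of these cell types in the results was not tested. When libraries were set to an equal mean log2 level of the 7 defining B cell markers, an alternative chosen after seeing the data, the median log2 fold change of all tested genes moved to -0.56. On that scale Plcg2 was at 0.16 ± 0.15, Prkca at 0.39 ± 0.20, Plcb2 at -0.05 ± 0.19 and Prkcb at -0.06 ± 0.13, and none of them passed (edgeR adjusted p = 0.131 to 0.828). The offset moves all genes together, so the place of these values above the shifted median follows from the TMM values and is no separate result. Plcg1 was lower on the 7-marker scale at -1.42 ± 0.20 (edgeR adjusted p = 0.00262), as were Prkcd at -0.62 ± 0.19 (adjusted p = 0.0294) and Plcb3 at -0.80 ± 0.22 (adjusted p = 0.0227). On this scale 5162 of the 12234 tested genes were called as lower, and Prkcd lay close to the median of all genes. With all 8 listed markers the median moved to -1.04, and Plcg2 at -0.32, Plcb2 at -0.53 and Prkcb at -0.55 were then called as lower, while Prkca at -0.10 did not pass. Plcg1 was at -1.90 with all 8 markers and was called as lower there too, among 10182 of the 12234 tested genes. Per 100 CPM of the 7 markers, Prkcb had 13.9, 13.8 and 12.9 CPM in the libraries labelled KO, against 14.6, 12.0 and 14.1 CPM in those labelled WT. Plcg2 overlapped as well, with 9.93, 8.85 and 8.75 CPM in the libraries labelled KO, against 8.99, 6.59 and 8.01 CPM in those labelled WT. Plcb2 and Prkce also overlapped on this measure, while Plcb3, Prkcd, Prkch and Prkcq were lower in the KO-labelled libraries without overlap. Plcg1 had 0.756, 0.637 and 0.660 CPM per 100 CPM in the libraries labelled KO, against 2.25, 1.45 and 1.56 CPM in those labelled WT. Prkca had 0.497, 0.515 and 0.449 CPM per 100 CPM in the libraries labelled KO, against 0.447, 0.320 and 0.303 CPM in those labelled WT, just short of overlap.

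**Figure D3:**
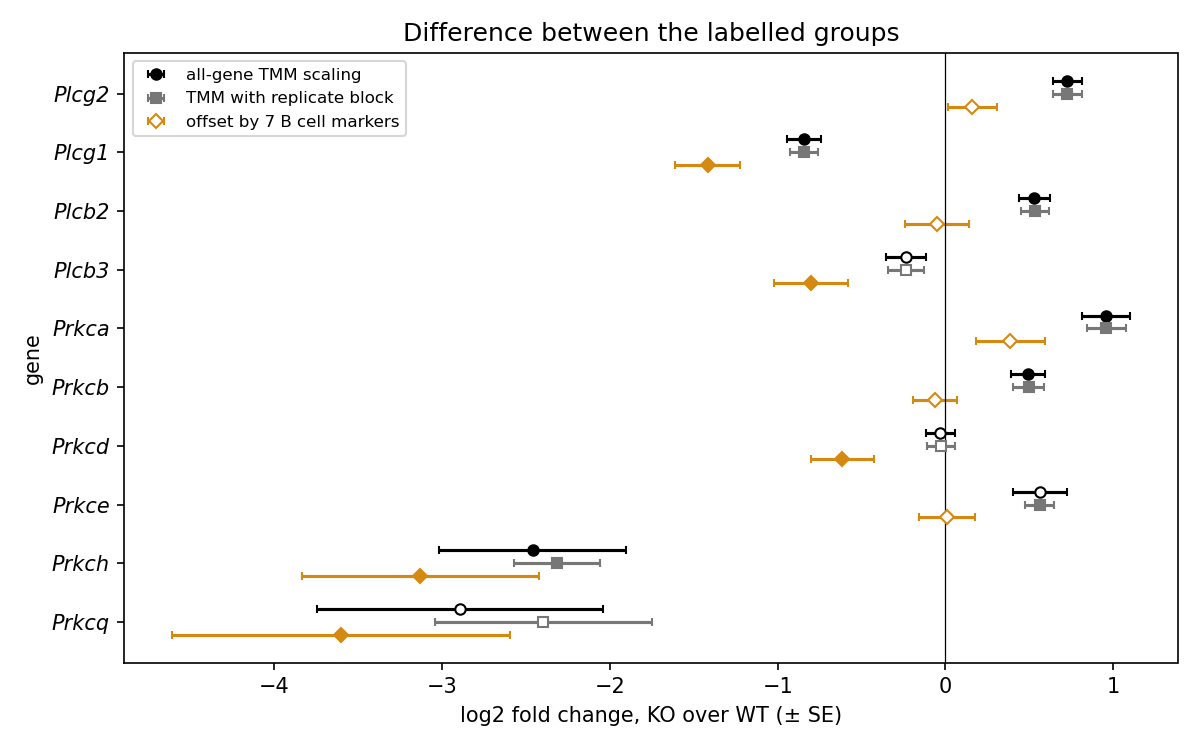
Log2 fold change of each gene, KO over WT, with its SE, under TMM scaling (black), with the replicate block (grey) and after offsetting by 7 B cell markers (orange). Filled symbols have an adjusted p below 0.05, and the orange values of Plcg2, Plcb2, Prkca, Prkcb and Prkce lie near 0 or overlap it within 2 SE.

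Among the protein kinase C members, Prkcb and Prkcd held most of the summed TPM in every library. Prkcb made up 44.7%, 46.5% and 43.7% of the sum in the libraries labelled KO, against 30.3%, 40.3% and 35.4% in those labelled WT. Prkcd made up 48.5%, 45.6% and 49.7% in the libraries labelled KO, against 57.3%, 51.4% and 58.2% in those labelled WT. Neither pair of groups overlapped. The ratio of Prkcb to Prkcd TPM was 0.921, 1.02 and 0.878 in the libraries labelled KO, against 0.529, 0.785 and 0.608 in those labelled WT. Prkch and Prkcq together with Prkca and Prkce made up the rest, with Prkcq at 0.245% ± 0.035 in the KO-labelled libraries and 2.03% ± 2.11 in the WT-labelled ones (SD, n = 3 each). The summed TPM of the 6 genes overlapped between groups, at 535 ± 47.0 in the KO-labelled libraries and 475 ± 13.5 in the WT-labelled ones.

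**Figure D4:**
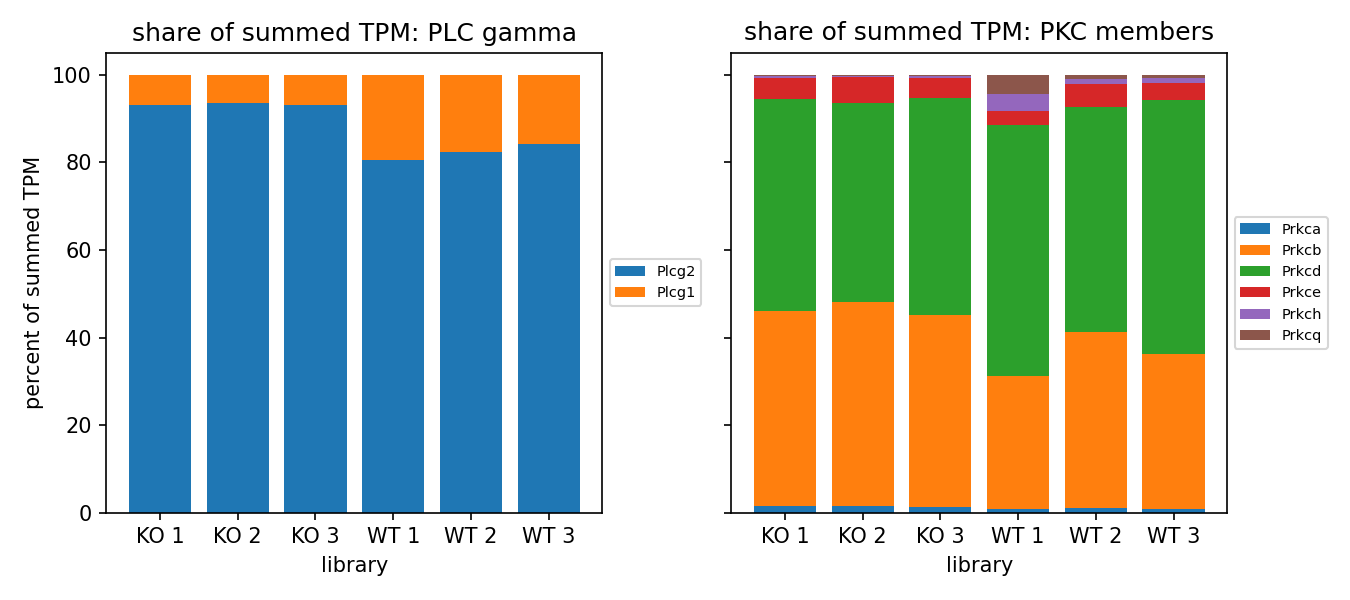
Share of the summed TPM held by each gene in every library, for the gamma phospholipases (left) and the 6 protein kinase C members (right). Plcg2 takes 93.3% on average in the KO-labelled libraries and 82.3% in the WT-labelled ones, and Prkcb takes 44.9% in the KO-labelled libraries and 35.3% in the WT-labelled ones.

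Ordered by mean TPM in the libraries labelled KO, Plcg2 came first at 298 ± 29.3 (SD, n = 3), before Prkcd at 256 ± 13.8 and Prkcb at 241 ± 28.2, and these 3 stood far above the rest. The ranges of Prkcd and Prkcb overlapped, as did those of Plcg2 with both. Plcb2 followed at 49.0 ± 6.09, then Prkce at 27.3 ± 6.06 and Plcg1 at 21.5 ± 2.15, whose ranges overlapped each other. Plcb3 at 14.1 ± 0.94 and Prkca at 7.84 ± 1.10 came next, and Prkch at 1.18 to 2.35 and Prkcq at 1.19 to 1.38 were last, with overlapping ranges. In the libraries labelled WT, Prkcd led at 264 ± 19.5 TPM, and Plcg2 at 182 ± 9.72 and Prkcb at 168 ± 21.2 overlapped each other. Plcg1 at 39.1 ± 4.25 TPM overlapped Plcb2 at 33.9 ± 4.44 in range in the libraries labelled WT, but was above it within each of them. Within every library labelled KO, Plcg1 lay below Plcb2. Prkca had 6.68 to 8.87 TPM in the libraries labelled KO, above Prkch and Prkcq in each. It had 3.30 to 4.63 TPM in the libraries labelled WT, below Prkch in each, while its range overlapped that of Prkcq, which had 21.8, 4.80 and 2.84 TPM there.

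Transcripts were examined to see which isoforms carried the counts. The 10 genes had 31 transcripts in the deposited transcript table, of which 23 were tested, and none passed edgeR's quasi-likelihood test adjusted over 31150 transcripts, where 0.154% were called. At an unadjusted p below 0.05 there were 8 of the 23, against 10.3% of all tested transcripts. Plcg1, Plcg2 and Prkch each had 1 transcript that held all counts, and those of Plcg2 and Plcg1 were just short of the threshold (adjusted p = 0.0547 and 0.0693). For Prkcb, NM_008855 held 93.0% ± 0.46 of the gene's estimated counts in the KO-labelled libraries and 94.6% ± 1.42 in the WT-labelled ones (SD, n = 3 each), while NM_001316672 held 6.59% ± 0.62 in the KO-labelled libraries and 5.06% ± 1.26 in the WT-labelled ones. A single transcript also led for Prkcd, with NM_011103 at 91.2% ± 1.87 in the KO-labelled and 93.4% ± 0.66 in the WT-labelled libraries, and for Prkca, with NM_011101 at 97.6% ± 2.70 in the KO-labelled and 93.0% ± 5.86 in the WT-labelled libraries. Plcb2 was split more evenly, with NM_177568 at 48.5% ± 3.45 in the KO-labelled and 42.5% ± 12.3 in the WT-labelled libraries, and XM_017316357 at 38.5% ± 9.56 in the KO-labelled and 39.2% ± 6.55 in the WT-labelled libraries. For Prkce, NM_011104 had 1187, 1354 and 970 counts in the libraries labelled KO, against 712, 733 and 674 counts in those labelled WT, while XM_006523833 overlapped between groups. The split of Prkcq is uncertain, since NM_008859 was listed at 0 in the library labelled KO replicate 2 and held all counts in replicates 1 and 3. How reads are divided between transcripts of a gene is an estimate, which limits these shares.

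Other genes of the pathway were read from 7 lists with 75 tested genes. In the KO-labelled libraries 14 were higher (18.7%), 5 were lower (6.67%) and 56 did not pass, with a median log2 fold change of 0.09. Of all 12234 tested genes, 4.55% were called as higher and 4.81% as lower. With the replicate block, 22 of the 75 were higher and 11 were lower, against 974 higher and 1561 lower of the 12234. Among the other phospholipase C genes, Plcl2, a catalytically inactive relative that dampens B cell receptor signalling in mice, was higher, with 264, 245 and 228 CPM in the libraries labelled KO, against 161, 162 and 143 CPM in those labelled WT (log2 fold change 0.66 ± 0.09, edgeR adjusted p = 0.00470). The other 5 tested members of that list did not pass, and each was under 5 CPM on average in both groups. Of 5 tested genes of other protein kinases C and D none passed edgeR, 2 had an unadjusted p below 0.05, and DESeq2 called 1 as higher. Among all 12234 tested genes, 3458 had an unadjusted p below 0.05 in edgeR. DESeq2 called 855 of all tested genes as higher and 1391 as lower. Prkd2, a protein kinase D of lymphocytes activated by PKC, had 375 ± 29.8 CPM in the KO-labelled libraries and 286 ± 31.6 CPM in the WT-labelled ones (SD, n = 3 each, edgeR adjusted p = 0.0522, blocked adjusted p = 0.00645).

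Upstream of the lipases, 3 of 13 tested genes were higher, 3 were lower and 7 did not pass. Gnaq and Gna11, which encode the G proteins that carry signals of Gq-coupled receptors, went opposite ways. Gnaq had 45.1 ± 2.18 CPM in the KO-labelled libraries and 68.8 ± 4.58 CPM in the WT-labelled ones (SD, n = 3 each, log2 fold change -0.61 ± 0.09, edgeR adjusted p = 0.00781). Gna11 had 37.6 ± 0.71 CPM in the KO-labelled libraries and 27.8 ± 1.20 CPM in the WT-labelled ones (log2 fold change 0.44 ± 0.10, adjusted p = 0.0362). Btk, the kinase that phosphorylates PLC gamma 2, was higher with a log2 fold change of 0.51 ± 0.11, whereas the kinase Syk, at -0.51 ± 0.13, and the PI3-kinase subunit Pik3cd, at -0.42 ± 0.08, were lower. The adaptor Blnk, which brings Btk and PLC gamma 2 together, overlapped between groups (-0.04 ± 0.16, adjusted p = 0.901). Gna11, Btk, Syk and Pik3cd each passed in 1 of the 6 fits that left out 1 library, and Gnaq passed in 5.

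Of 10 genes that make or remove PIP2, the substrate of the lipases, edgeR called 3 as higher and 0 as lower, with 5 at an unadjusted p below 0.05. DESeq2 called 1 as lower, and the replicate block called Cds1, a synthase of the PIP2 precursor CDP-diacylglycerol, as lower (blocked log2 fold change -1.75, blocked adjusted p = 0.00981). The higher genes included the phosphatidylinositol 4-kinase Pi4kb at 0.57 ± 0.08 and the lipid kinase Pip4k2b at 0.49 ± 0.10 on the log2 scale. Pi4kb passed in all 6 fits that left out 1 library, and Pip4k2b in 3. On the IP3 and calcium side, 2 of 18 were higher, 1 was lower and 15 did not pass, and with the replicate block 6 were higher and 1 was lower. The IP3 receptor Itpr3 had 306 ± 34.2 CPM in the KO-labelled libraries and 198 ± 12.5 CPM in the WT-labelled ones (log2 fold change 0.63 ± 0.10, edgeR adjusted p = 0.00991). Itpkb, which phosphorylates IP3, was higher at 0.64 ± 0.13, and Inpp5a, a phosphatase of IP3, was lower at -0.54 ± 0.13. Itpr3 passed in 4 of the 6 fits that left out 1 library, Itpkb in 3 and Inpp5a in 1. Of 8 diacylglycerol kinases, which remove diacylglycerol, none passed edgeR and 3 had an unadjusted p below 0.05. DESeq2 called 1 of these kinases as higher and 2 as lower, and the block called 1 as higher and 3 as lower. Counts at an unadjusted p below 0.05 stand beside 3458 of all 12234 tested genes.

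Among 15 effectors of diacylglycerol and PKC, 5 were higher, 1 was lower and 9 did not pass. With the replicate block 5 were higher and 3 were lower, against 974 higher and 1561 lower of all 12234 tested genes. Malt1, a protease of the route to NF-kB, had 329, 371 and 310 CPM in the libraries labelled KO, against 202, 228 and 203 CPM in those labelled WT. Every KO-labelled library was above the WT-labelled ones (log2 fold change 0.67 ± 0.10, edgeR adjusted p = 0.00600), and Malt1 passed in all 6 fits that left out 1 library (adjusted p up to 0.0384). Bcl10, which binds Malt1, overlapped between groups at 0.05 ± 0.07. The IkB kinase Ikbkb was higher at 0.46 ± 0.07. Of the diacylglycerol-binding activators of Ras and Rap, Rasgrp1 at 0.58 ± 0.12 and Rasgrp2 at 0.50 ± 0.13 were higher, and Rasgrp3, an isoform of B cells, overlapped between groups at -0.07 ± 0.11. The PKC substrate relative Marcksl1 was lower at -0.69 ± 0.17 (adjusted p = 0.0495). Rasgrp2 and Marcksl1 passed in 1 and 2 of the 6 fits that left out 1 library, and Rasgrp1 in 3. As with the members, these values are relative to all genes, whose share from B cell, neutrophil and macrophage markers differed between the groups, and the part of that in the results was not tested.

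For Plcg2 and Prkcb, the genes of nearest pattern were found by the smallest root mean square difference of centred log2 CPM over the 6 libraries, among genes of at least 1 CPM. For Plcg2 these were Evi2b, Gucd1 and Rac2, with differences of 0.056, 0.059 and 0.063 on the log2 scale. For Prkcb they were Zfp956, Cxxc5 and Ikzf3, with differences of 0.026, 0.032 and 0.034.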

How the data were processed

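The labels' protocols state oligo(dT) capture of mRNA, random-hexamer priming and paired-end sequencing on a BGISEQ-500. Software listed in the submitters' processing notes, without roles, was HISAT2 2.0.4, Bowtie2 2.2.5 and RSEM 1.3.1, and the build was mm10. The authors deposited estimated counts per gene and transcript, unscaled, of which 5.87% and 54.7% were not whole (beyond a tolerance of 1e-06), and FPKM and TPM scaled to length and depth, per the file headers. Per-sample columns not used numbered 18, among them 12 whose unit could not be settled.

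Counts were rounded, filtered (filterByExpr of edgeR 4.0.16; 12234 of 16511 genes and 31150 of 55379 transcripts), scaled by TMM and tested by the quasi-likelihood F-test of edgeR (robust fit), without a block. CPM are TMM-scaled. SEs derive from the F statistic. Levels of different genes were compared in TPM. DESeq2 1.42.0 and limma 3.58.1 on log2(FPKM + 0.1) were alternatives. The fits were tested on simulated data with the same relative spread for every gene and no difference in cell types. These libraries differ from that setting in the spread of single genes and in their cell type markers. Each pair of libraries within a group differed by more than counting noise (chi-square of 11.8 to 45.8 per degree of freedom). Floors cover counting error only, whereas the SEs and SDs also include the spread among libraries within a group.

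The labels number replicates 1 to 3 in both groups but name no separate animals, and each p-value reflects only the spread among these libraries, which may be technical. Deviations from group means correlated between same-numbered libraries with r = 0.133, 0.362 and 0.170 over genes, against -0.218 to 0.0365 for unlike numbers. Because deviations were taken from group means, these values are not independent. The block uses the replicate numbers of the labels, which do not state that same-numbered libraries are paired. That reading rests on these correlations, and the block is an alternative. Members, lists and tests were chosen with earlier results of these data known. Named genes are the members, their tested transcripts and up to 6 genes of smallest p that passed from each list. Others named, such as Prkd2, Cds1, Blnk, Bcl10, Rasgrp3, Rasgrp4, Zhx3 and Lck, were chosen after their values were seen. Not every gene counted in these lists is reported here. Loci are from GENCODE for GRCm38, the build mm10. Promoters are from RefSeq (GRCm38.p6), which matched 8 of the 10 members.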

Additional observations from a re-analysis of the deposited data

How the results depend on the processing

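Under RLE factors, upper-quartile factors, library sizes alone, the stricter count filter and limma on FPKM, 6 members were called, 4 higher and 2 lower in the libraries labelled KO, as reported. Without a filter 1 member was lower, Prkch having been lost (adjusted p = 0.0703), and the transcript of Plcg2 was then the 1 member transcript called, among 109 transcripts (73 higher, 36 lower) in place of 48. The offset by all 8 B cell markers moved the median of all genes to -1.04 and gave 10237 called genes (55 higher, 10182 lower), with 0 members higher and 9 lower; Plcg2, Plcb2, Prkca, Prkcb and Prkce were then at -0.32, -0.53, -0.10, -0.55 and -0.48. By construction this scale carries the rise of the markers themselves. The offset by 7 of them gave 5268 called genes (106 higher, 5162 lower), with 0 members higher and 5 lower, Plcb2 at -0.050 and Prkcb at -0.064. DESeq2 called 2246 genes (855 higher, 1391 lower) and 8 members, adding Prkce and Prkcq. The replicate block called 2535 genes (974 higher, 1561 lower), added Prkce and changed no other member's call; it called 0 transcripts in either direction (2896 at an unadjusted p below 0.05). Prkcd changed sign to 0.020 under upper-quartile factors and to 0.027 without the libraries labelled WT replicate 1 and KO replicate 3 together, where 567 genes were called (338 higher, 229 lower) with 1 member lower. Leaving out 1 library gave 264 to 2030 genes, 169 to 830 higher and 95 to 1200 lower, the lowest without that labelled KO replicate 2 and the highest without that labelled WT replicate 2. It gave 3 to 7 members, 2 to 5 higher and 1 to 2 lower, Prkcd at -0.086 to 0.016, and 1 to 5 transcripts, 1 to 4 higher and 0 to 1 lower. Causes of these shifts were not tested beyond what a setting does by construction. With 3 libraries per group, Prkch and Prkcq, below 5 CPM in the libraries labelled KO, carry the largest SEs.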
